A study of Mus musculus with 2 samples.

Results

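The genes described here carry out fatty acid oxidation and ketone metabolism, as measured in whole skin from C57BL/6N mice at postnatal day 0. They are 37 listed genes of PPAR signalling, of mitochondrial and peroxisomal fatty acid oxidation and of ketone metabolism, and they were found on the array by the gene name that the scanner files give each probe. All 37 had a probe, 51 probes in all, out of 39422 probes that stood for 24176 named genes. Of those named genes, 19342 had a probe well above background on both arrays, and so did all 37 members. The KO group was Pla2g4e-/- skin and the WT group was Pla2g4e+/+ skin, with 1 array for each. Each array held equal amounts of total RNA from the skin of 5 animals, so that differences among the animals of a pool were not measured. The labels do not say how the allele was made or which part of the gene it removes.

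In mammals, long-chain fatty acids are taken up, joined to coenzyme A, carried into mitochondria as carnitine esters and shortened in repeated cycles of beta-oxidation, whose electrons pass to the respiratory chain. Very long and branched chains are first shortened in peroxisomes. The liver turns surplus acetyl-CoA into ketone bodies, which other tissues burn. PPARs are nuclear receptors that bind fatty acids and their derivatives, and many genes of these steps are known targets of theirs. In epidermis, PPAR signalling is known for its part in keratinocyte differentiation and barrier lipid formation.

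Values are log2 signal relative to the 75th percentile probe of the same array, which read 2096 in the KO pool and 2233 in the WT pool. Signals quoted without "log2" are unscaled spot intensities. A difference is the KO pool minus the WT pool, and the error printed with it comes from the scanner software's model for the spots, which leaves out the animals. That error had a median of 0.20 log2 over all measured genes. It was nearly the same for all bright probes, so it is not a noise measured gene by gene. For 266 probes with 10 spots on each array, the SD of the difference among spots had a median of 0.035 log2. With 1 array per group, no test was possible, no p-value is given, and the number of arrays limits the precision. The probe A_52_P203948 for Pla2g4e itself read 320 in the KO pool and 662 in the WT pool, and the probe A_55_P2122896 read 11.7 in the KO pool and 10.6 in the WT pool, near background. A probe outside the deleted part checks nothing about the labels. Of the defining keratinocyte genes, 15 were measured, among them Krt5 with 224586 in the KO pool and 247197 in the WT pool, and Krt14 with 87086 in the KO pool and 92691 in the WT pool. The Y-linked Ddx3y read 2.36 in the KO pool and 2893 in the WT pool, and Xist read 2889 in the KO pool and 796 in the WT pool. No probe of Ddx3y, Eif2s3y, Kdm5d or Uty was well above background in the KO pool, whereas all of them and Xist were in the WT pool. The WT pool thus read as holding both sexes and the KO pool as holding no males, though the labels give no sex. Genotype, sex of the pooled animals and position on the slide cannot be told apart in any difference below.

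Among the 37 members, 3 genes stood at least 2-fold higher in the KO pool and the 9 enzymes of mitochondrial beta-oxidation lay between -0.15 and 0.22 log2. These 3 were Pdk4, the kinase that turns off pyruvate dehydrogenase when fat is burned, Ppara, the PPAR of oxidative tissues, and Plin5, a lipid droplet protein of tissues that oxidise fat. Pdk4 was 2.76-fold higher, Ppara 2.31-fold and Plin5 2.29-fold. Of the 19342 measured genes, 2.24% reached 2-fold on the higher side and 1.44% on the lower side. The same 3 members were the ones at least 1.5-fold higher, a size that 6.73% of all genes reached, and 0 of 37 were at least 1.5-fold lower, against 4.48% of all genes. The median difference of the 37 members was 0.10 log2, and that of all measured genes was 0.01. The typical size of a difference was alike, with a median absolute value of 0.175 log2 over the members and 0.183 over all genes. Of the members, 19 differed by no more than their own scanner error, as did 56.0% of all genes. In whole skin, fewer cells of a type and less RNA per cell cannot be told apart.

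**Figure D1:**
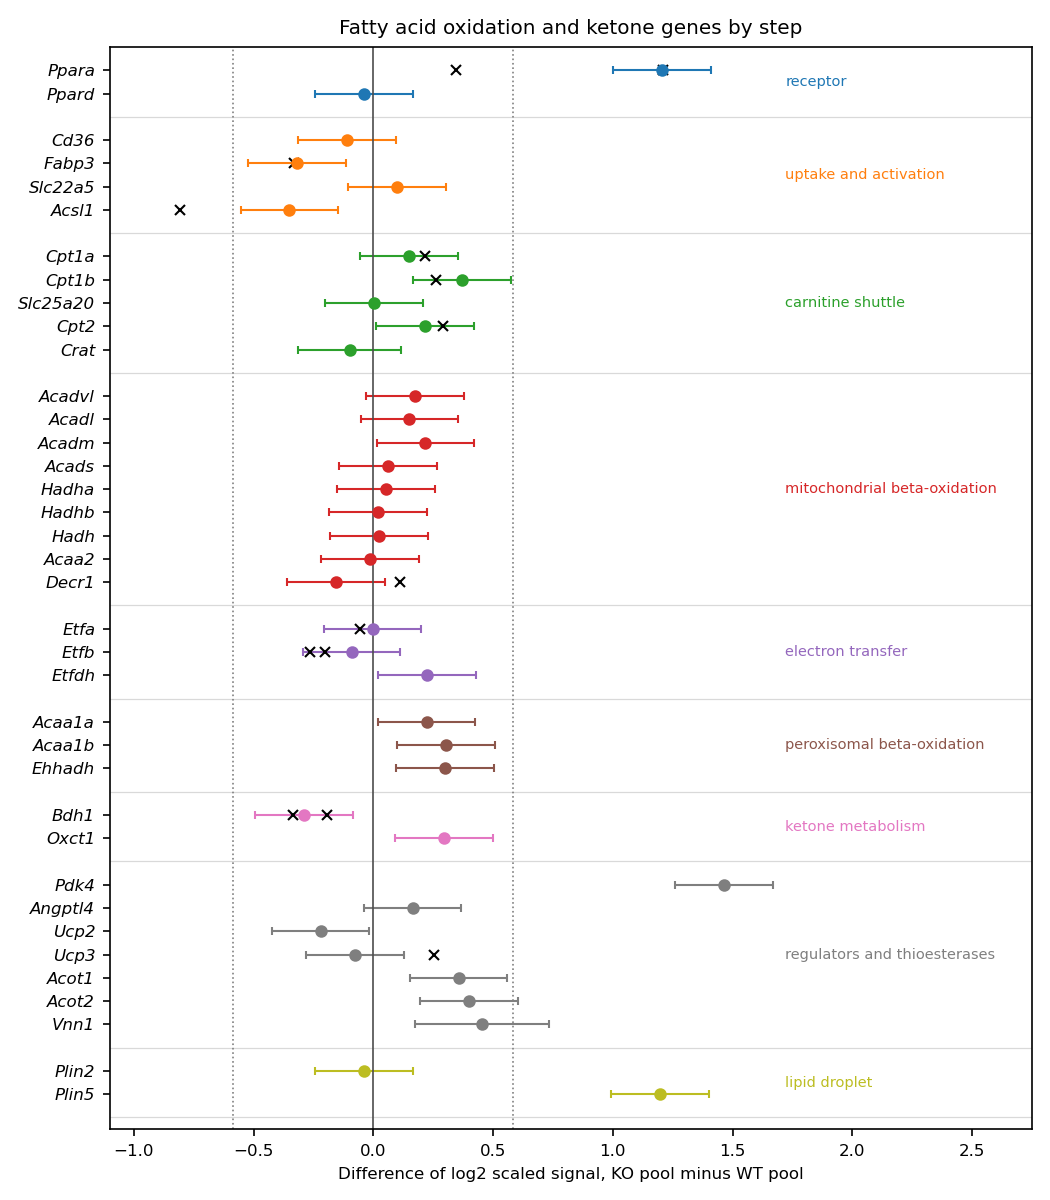
Difference of log2 scaled signal, KO pool minus WT pool (horizontal axis), for the 37 genes grouped by step (vertical axis). Filled points are each gene's brightest probe, bars are the scanner error of the difference, crosses are the gene's other probes, and dotted lines mark 1.5-fold. Pdk4 (1.46), Ppara (1.21) and Plin5 (1.20) lie beyond the upper line, and the 9 genes of mitochondrial beta-oxidation lie between -0.15 and 0.22.

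Ppara, the receptor, read 2046 in the KO pool and 944 in the WT pool with its brightest probe, A_55_P2055854. It stood at 1.21 log2 (scanner error 0.20), and 288 of the 19342 measured genes, itself included, lay as high or higher. A second probe, A_55_P2071596, read 662 in the KO pool and 305 in the WT pool, a difference of 1.21 log2. The third, A_55_P2071601, read 793 in the KO pool and 664 in the WT pool, a difference of 0.35 log2 that is less than 1.5-fold. The size of the Ppara difference therefore depended on the probe, and the mean over the 3 probes was 0.92 log2. All 3 are assigned to the same transcript, NM_011144, on the plus strand of mm9 chromosome 15. The probe with the small difference starts 424 bases after the brightest one, and the other high one starts 5083 bases after it. The bases that open each 60-base probe are shown so that the sites can be told apart, and the positions given are those of the whole probes, in the order of the chromosome.
A_55_P2055854, chr15:85632110-85632169: ctttgaaaacctacaagtcaaggtgtggcc
A_55_P2071601, chr15:85632534-85632593: aaatgctcctctaggcccctcctttggcag
A_55_P2071596, chr15:85637193-85637252: cctgtaagctgatgaatgtaaagagttaat

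Ppard, the PPAR that is widely expressed and abundant in epidermis, read 3304 in the KO pool and 3616 in the WT pool. It stood at -0.04 log2 after scaling, within its scanner error of 0.20, and Pparg, the PPAR of adipocytes and sebocytes, which is no member, stood at -0.22 log2. Of the PPAR genes, Ppara alone was thus past 1.5-fold on these arrays. Among 12 other receptors and partners, all measured, 2 were at least 1.5-fold higher and 0 lower. They were Lpin1, a phosphatidate phosphatase that also acts as a PPAR co-activator (1.01 log2; signal 1213 in the KO pool and 640 in the WT pool), and the co-activator Ppargc1a (0.68 log2). For this list and those below, the shares over all measured genes were 6.73% higher and 4.48% lower. The RXR partners of the PPARs stood at 0.34 (Rxra), 0.26 (Rxrb) and 0.04 (Rxrg).

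Pdk4 had 1 probe, A_51_P350453 at mm9 chromosome 6, 5433441 to 5433500. It read 8823 in the KO pool and 3408 in the WT pool. It stood at 1.46 log2 (scanner error 0.20), and 177 measured genes, itself included, lay as high or higher. The other kinases of the same family were at 0.01 (Pdk1), 0.29 (Pdk2) and -0.08 (Pdk3), and the opposing phosphatases at 0.38 (Pdp1) and -0.47 (Pdp2). Only the Pdk4 kinase was past 1.5-fold among these 6 genes.

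Plin5 read 3827 in the KO pool and 1780 in the WT pool with its single probe, A_55_P2104259 at mm9 chromosome 17, 56251025 to 56251084. It stood at 1.20 log2 (scanner error 0.20), and 296 measured genes, itself included, lay as high or higher. Plin2, the perilipin found on droplets of most cells, read 7538 in the KO pool and 8249 in the WT pool, a scaled difference of -0.04. Pnpla2, the triglyceride lipase that Plin5 binds, is no member and stood at 0.83 log2, with 22286 in the KO pool and 13378 in the WT pool. The droplet coat of adipocytes, Plin1, was at -1.13 log2, with 2948 in the KO pool and 6886 in the WT pool.

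**Figure D2:**
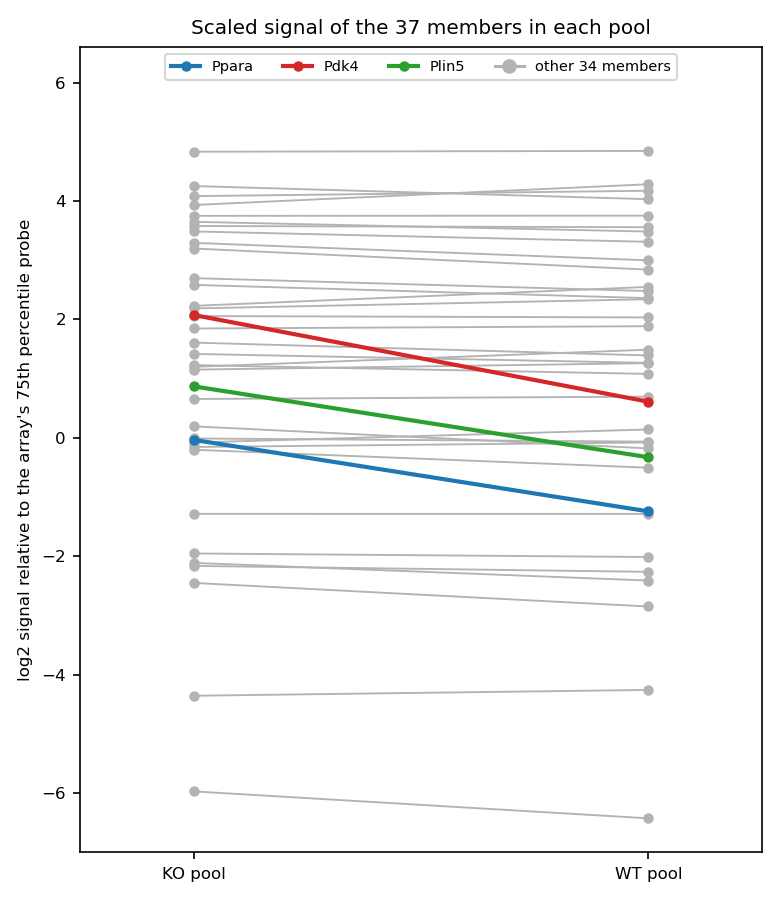
Log2 signal relative to the array's 75th percentile probe (vertical axis) of each of the 37 members in the KO pool and the WT pool (horizontal axis), 1 array each, joined by a line per gene. Pdk4, at 2.07 in the KO pool and 0.61 in the WT pool, Plin5, at 0.87 in the KO pool and -0.33 in the WT pool, and Ppara, at -0.03 in the KO pool and -1.24 in the WT pool, slope most steeply.

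Pdk4, Ppara and Plin5 are known targets of PPARs, so their promoters were searched for the PPAR and RXR motif, a direct repeat of the hexamer AGGTCA spaced by a single base (AGGTCANAGGTCA), on both strands. The windows run from 250 bases before to 50 bases after the start in RefSeq, build GRCm38.p6. The table held 34 promoters for 31 of the 37 members. The exact repeat was in 0 of these and in 0.0396% of all 32851 promoters. Up to 2 mismatches over the 12 fixed letters were met in 5 of the 34 (14.7%) and in 3.86% of all promoters. The hexamer alone, which the repeat contains, was in 8 of the 34 (23.5%) and in 16.3% of all promoters. These matches are a description of letters and not evidence of binding. The 3 promoters are shown in the direction of transcription with hexamers in capitals; of the 2 starts listed for Plin5, the upstream one is given.
Pdk4, chr6:5496229-5496528, minus strand: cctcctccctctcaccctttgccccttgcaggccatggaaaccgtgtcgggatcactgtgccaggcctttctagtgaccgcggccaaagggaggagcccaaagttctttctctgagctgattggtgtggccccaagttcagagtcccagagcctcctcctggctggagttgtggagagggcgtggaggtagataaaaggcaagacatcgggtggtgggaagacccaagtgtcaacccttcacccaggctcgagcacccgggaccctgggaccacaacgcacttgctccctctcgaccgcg
Ppara, chr15:85735526-85735825, plus strand: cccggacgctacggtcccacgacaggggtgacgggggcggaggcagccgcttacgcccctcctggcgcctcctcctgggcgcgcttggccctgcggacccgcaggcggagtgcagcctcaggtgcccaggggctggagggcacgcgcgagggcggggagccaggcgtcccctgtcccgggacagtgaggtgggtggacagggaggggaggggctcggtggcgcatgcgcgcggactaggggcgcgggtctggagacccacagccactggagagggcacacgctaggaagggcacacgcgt
Plin5, chr17:56117499-56117798, minus strand: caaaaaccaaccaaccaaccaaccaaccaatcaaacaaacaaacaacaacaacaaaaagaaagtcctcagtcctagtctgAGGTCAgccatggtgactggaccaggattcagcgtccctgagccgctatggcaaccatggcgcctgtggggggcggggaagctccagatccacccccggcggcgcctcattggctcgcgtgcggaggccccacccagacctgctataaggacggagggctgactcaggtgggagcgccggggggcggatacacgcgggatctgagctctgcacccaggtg

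The Pdk4 and Ppara windows held 0 hexamers, and the Plin5 window shown held 1, as did that of its other start. Sequence outside the windows was not searched, so these counts say nothing about motifs elsewhere. The 5 members with a repeat of up to 2 mismatches were other genes, all with differences near 0, and their windows are given to show what those matches look like. They stood at -0.11 log2 (Cd36), 0.00 (Etfa), -0.04 (Plin2), 0.00 (Slc25a20) and -0.08 (Ucp3).
Cd36, chr5:17835947-17835959: AAGTCAGAGGCCA
Etfa, chr9:55512308-55512320: AGGGCAAAGGTAA
Plin2, chr4:86670272-86670284: AGGTCAGGGGTCC
Slc25a20, chr9:108662142-108662154: AGGTGAAAGGTCG
Ucp3, chr7:100472940-100472952: AGGTTTCAGGTCA

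Genes of fatty acid uptake and activation lay below 0, apart from Slc22a5, the carnitine importer, at 0.10. Acsl1, the acyl-CoA synthetase that activates long-chain fatty acids, read 31997 in the KO pool and 43449 in the WT pool, a difference of -0.35 log2 with a scanner error of 0.20. Its other probe, A_51_P463452, read 2310 in the KO pool and 4309 in the WT pool, a difference of -0.81 log2, which is past 1.5-fold. The mean over both Acsl1 probes was -0.58, just short of that size. Fabp3, the fatty acid binding protein of heart and muscle, read 9828 in the KO pool and 13065 in the WT pool and stood at -0.32, with its other probe at -0.33. Cd36, the fatty acid translocase, read 4657 in the KO pool and 5351 in the WT pool and stood at -0.11. No gene of this step reached 1.5-fold in either direction with its brightest probe. Of 18 other genes of uptake and activation, 17 were measured, 0 were at least 1.5-fold higher and 1 was lower, Acsl6, a synthetase of brain and erythroid cells (-0.83).

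The carnitine shuttle had small differences. Cpt1b, the outer-membrane transferase of muscle and brown fat, read 2398 in the KO pool and 1974 in the WT pool, a difference of 0.37 log2, with its other probe at 0.26. Cpt1a, the form of liver and most other tissues, stood at 0.15, with its other probe at 0.22. The main Cpt1a probe was printed 10 times on each array, and the differences of its spots ran from 0.13 to 0.18 with an SD of 0.017, a spread of spots and not of animals. Cpt2, the inner-membrane transferase, stood at 0.22, the carrier Slc25a20 at 0.00 and Crat, the carnitine acetyltransferase, at -0.10. All 5 genes were within 1.5-fold, and 4 of them lay above 0, though Slc25a20 and Crat changed sign under some alternatives.

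The enzymes of mitochondrial beta-oxidation had small differences between the pools. All 9 lay between -0.15 and 0.22 log2, their median was 0.05, and 8 of them differed by no more than the scanner error. The acyl-CoA dehydrogenases, which open each cycle, stood at 0.18 (Acadvl, very long chains), 0.15 (Acadl, long chains), 0.22 (Acadm, medium chains) and 0.06 (Acads, short chains). The trifunctional protein subunits stood at 0.05 (Hadha) and 0.02 (Hadhb), and Hadh, the dehydrogenase for shorter chains, at 0.02, values so near 0 that those of Hadhb and Hadh changed sign under some alternatives. Acaa2, the thiolase that ends the cycle, read 59704 in the KO pool and 64194 in the WT pool over 10 spots each, a scaled difference of -0.01 with an SD of 0.040 among spots. Decr1, which reduces double bonds of unsaturated chains, stood at -0.15 with its brightest probe and at 0.11 with the other. The Acadm probe has a position on mm9 chromosome 11, whereas RefSeq places the gene on chromosome 3, so its value may not come from Acadm transcripts alone.

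Electron transfer genes, which pass electrons from these dehydrogenases to ubiquinone, stood at 0.00 (Etfa), -0.09 (Etfb) and 0.22 (Etfdh). The other probes of Etfb lay at -0.20 and -0.26, and that of Etfa, whose position is on chromosome 1 rather than on the gene's chromosome 9, at -0.05. Among 22 other genes of mitochondrial oxidation and its control, 21 were measured and 0 were past 1.5-fold in either direction. They ran from -0.43 (Acaca, the carboxylase that makes malonyl-CoA for lipogenesis) to 0.50 (Cpt1c, the neuronal carnitine palmitoyltransferase), with a median of 0.09.

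The 3 peroxisomal members all lay above 0 by more than their scanner error and short of 1.5-fold, although Acaa1a, at 0.17 with median scaling, was then within its error. Acaa1b, a peroxisomal thiolase, read 1823 in the KO pool and 1575 in the WT pool, a difference of 0.30 log2. Ehhadh, the peroxisomal bifunctional enzyme, read 485 in the KO pool and 420 in the WT pool, also 0.30. Acaa1a, the paralogous thiolase, read 39935 in the KO pool and 36472 in the WT pool, 0.22. The Acaa1a and Acaa1b probes share no run longer than 6 bases, though whether other near-identical sequence reaches them was not tested. Of 24 other peroxisomal genes, all measured, Hacl1, a lyase of branched-chain breakdown, was the 1 at least 1.5-fold higher (0.59) and Acox2, the oxidase for branched chains and bile acid precursors, the 1 lower (-1.06, with 439 in the KO pool and 971 in the WT pool). The median of that list was 0.02.

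In ketone metabolism, the 2 members lay on opposite sides of 0. Bdh1, which interconverts the 2 main ketone bodies, read 4814 in the KO pool and 6267 in the WT pool, a difference of -0.29 log2, with other probes at -0.19 and -0.33. Oxct1, which activates ketone bodies for burning, read 20536 in the KO pool and 17827 in the WT pool, a difference of 0.30. Neither reached 1.5-fold. Acat1, a thiolase of ketone synthesis and breakdown that is no member, stood at -0.36. Of 13 other ketone genes, 11 were measured, 2 were at least 1.5-fold higher, among them the cytosolic dehydrogenase Bdh2 (0.64), and 0 were lower. Over all measured genes, 6.73% were that much higher and 4.48% lower. The list's median was 0.01.

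The remaining regulators and thioesterases were all short of 1.5-fold. Angptl4, a secreted lipase inhibitor that is widely used as a readout of PPAR activity, read 26266 in the KO pool and 24974 in the WT pool, a difference of 0.16 log2 within its scanner error of 0.20. The acyl-CoA thioesterases Acot1 (cytosolic, 19215 in the KO pool and 15992 in the WT pool) and Acot2 (mitochondrial, 384 in the KO pool and 310 in the WT pool) stood at 0.36 and 0.40. Their probes share no run longer than 6 bases, but whether either probe also matches the other gene's transcript was not tested. Vnn1, the pantetheinase, stood at 0.46 with a scanner error of 0.28, from a dim probe that read 33.4 in the KO pool and 26.0 in the WT pool. The mitochondrial carriers Ucp2 and Ucp3 stood at -0.22 and -0.08, and the dimmer Ucp3 probe at 0.25, so that the mean over both Ucp3 probes was above 0. Of 27 other genes known as PPAR targets or of the same families, 26 were measured. Pnpla2 and Acot12, a thioesterase of liver, were the 2 at least 1.5-fold higher, and Plin1 was the 1 lower. Over all measured genes, 6.73% were that much higher and 4.48% lower. Acot12 stood at 1.90 log2 from a dim probe, with 85.6 in the KO pool and 24.5 in the WT pool. Classical hepatic targets had dim probes and stood at -0.05 (Cyp4a10), 0.37 (Cyp4a14) and -0.37 (Fgf21). The list's median was 0.00.

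**Figure D3:**
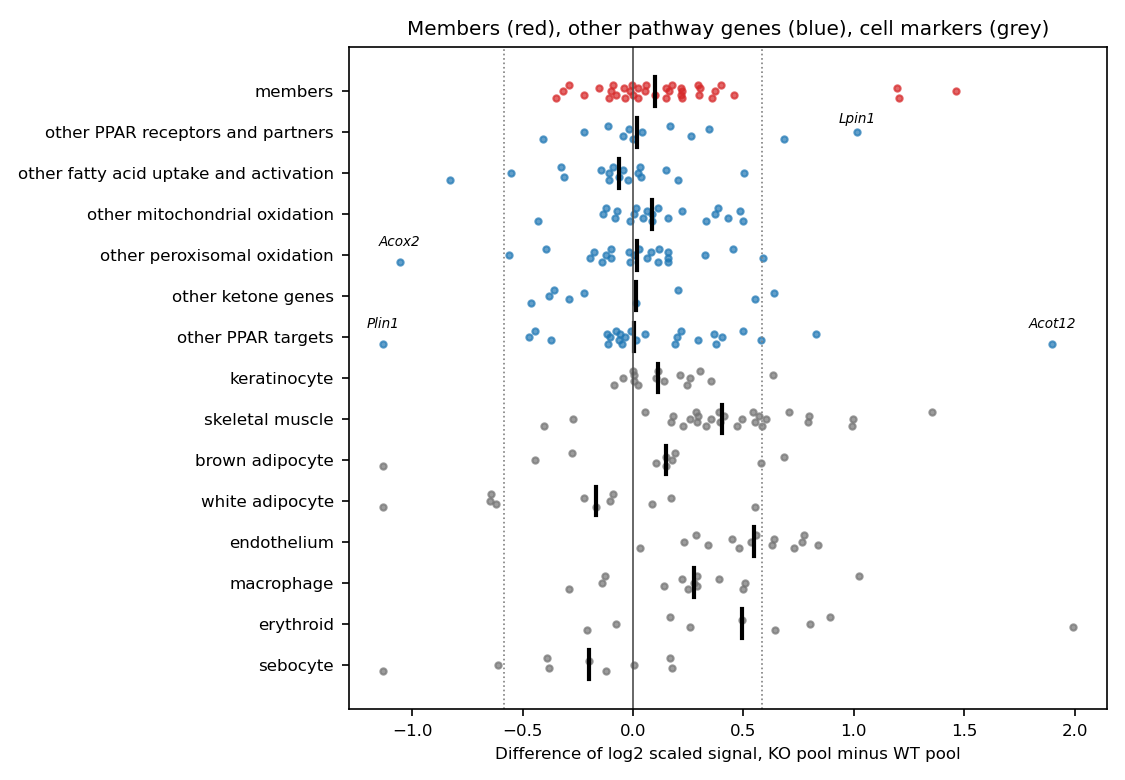
Difference of log2 scaled signal, KO pool minus WT pool (horizontal axis), for the members, 6 lists of other pathway genes and 8 lists of cell markers (vertical axis). Points are genes, without those not reported here, black bars are medians over all measured genes of a list, dotted lines mark 1.5-fold, and plotted pathway genes past 2-fold are named. The medians of the pathway lists lie between -0.07 and 0.09. Those of the endothelium (0.55), erythroid (0.49), skeletal muscle (0.40), macrophage (0.27), brown adipocyte (0.15) and keratinocyte (0.11) markers and of the members (0.10) lie above them. Those of the white adipocyte (-0.17) and sebocyte (-0.20) markers lie below them. Some genes are in several lists.

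Over all 6 lists, 111 of 116 other pathway genes were measured. Of these, 7 were at least 1.5-fold higher, against 6.73% of all measured genes, and 3 were at least 1.5-fold lower, against 4.48%. The median was 0.01, equal to that of all genes at this precision. Neither count stood above the share over all genes.

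Skeletal muscle and brown adipocytes are known to express Pdk4, Ppara, Plin5, Cpt1b, Ucp3 and Fabp3 strongly. Markers of tissues that whole skin can carry were therefore measured beside them. These lists share genes and are not separate evidence. Elovl3 is in the brown adipocyte and the sebocyte list. The brown adipocyte markers Ucp1, Cidea and Ppargc1a and the white adipocyte markers Plin1, Pparg, Fabp4 and Cidec are also in the lists of other pathway genes. With their brightest probes, Pdk4, Ppara, Plin5 and Cpt1b lay above 0, and Ucp3 (-0.08) and Fabp3 (-0.32) lay below it. Of 28 skeletal muscle markers, all measured, 26 lay above 0, as did 51.8% of all measured genes. Of the markers, 7 were at least 1.5-fold higher, against 6.73% of all genes, and 0 lower, against 4.48%. They ran from -0.40 (Myh2) to 1.36 (Tnni1), with a median of 0.40, and their summed scaled signal was 696 in the KO pool and 552 in the WT pool. Of 11 brown adipocyte markers, 10 were measured, from -1.13 (Elovl3) to 0.68 (Ppargc1a), with a median of 0.15 and sums of 17.8 in the KO pool and 18.0 in the WT pool. Of these 10, 7 lay above 0 and 3 below. Ucp1, the defining gene of brown fat, stood at 0.58, with 245 in the KO pool and 174 in the WT pool. Cidea, at -0.45, and Dio2, at -0.28, lay below 0, as did Elovl3. White adipocyte markers had a median of -0.17 over 11 of 12 measured genes, from -1.13 (Plin1) to 0.55 (Thrsp), with sums of 126 in the KO pool and 140 in the WT pool. Sebocyte markers had a median of -0.20 over 9 genes, from -1.13 (Elovl3) to 0.18 (Mogat1), with sums of 53.2 in the KO pool and 61.3 in the WT pool. Their part in the differences of Pdk4, Ppara, Plin5 and Acsl1 was not tested.

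Markers of other cells of skin differed as well, and their part in the members' differences was not tested. All 14 endothelial markers lay above 0, from 0.03 (Kdr) to 0.84 (Emcn), with a median of 0.55 and sums of 31.1 in the KO pool and 23.1 in the WT pool. Macrophage markers had a median of 0.27 over 13 genes, from -0.29 (Lyz2) to 1.02 (Cd163), with sums of 26.1 in the KO pool and 23.9 in the WT pool. The Cd163 probe was dim, with 107 in the KO pool and 56.3 in the WT pool. Erythroid markers had a median of 0.49 over 9 of 12 measured genes, from -0.21 (Car1) to 1.99 (Hbb-y), with sums of 54.9 in the KO pool and 39.0 in the WT pool. The Hbb-y probe was dim as well, with 118 in the KO pool and 31.5 in the WT pool. Keratinocyte markers had a median of 0.11, from -0.08 (Sfn) to 0.63 (Ivl), with sums of 673 in the KO pool and 631 in the WT pool.

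**Figure D4:**
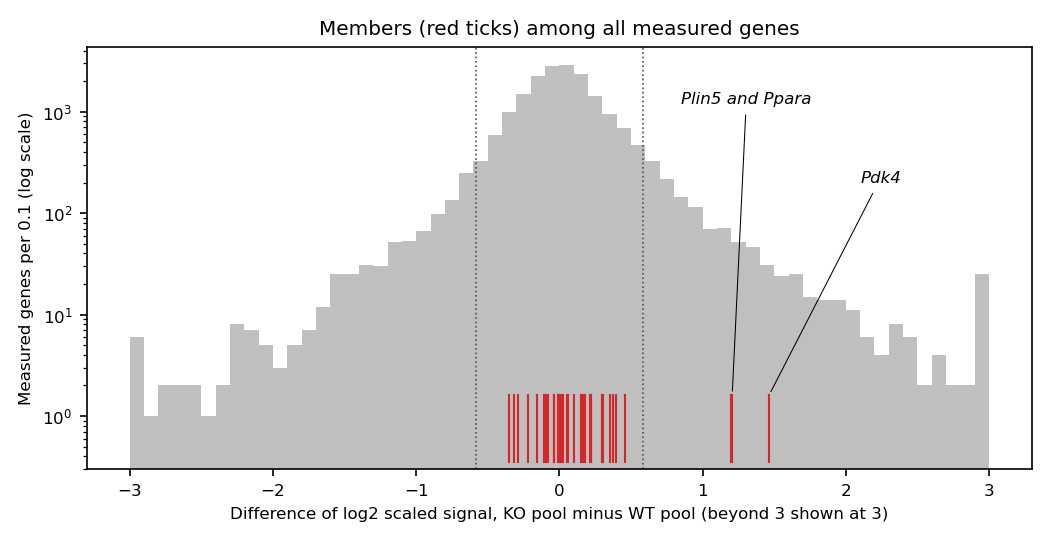
Number of measured genes per 0.1 log2 (vertical axis, log scale) by difference of log2 scaled signal, KO pool minus WT pool (horizontal axis), with the 37 members as red ticks, 1.5-fold as dotted lines and genes beyond 3 drawn in the end bars. All members other than Pdk4, Ppara and Plin5 lie between -0.35 and 0.46.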

How the data were processed

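RNA was isolated with the RNeasy kit, and Cy3-labelled material from each pool was hybridised to a 1-colour Agilent array, per the labels' protocols and the file headers. Scanning used Agilent Feature Extraction, version 11.5.1.1, per the submitters' processing notes. Spot intensity in the deposited files was used as processed by that software, per the file headers. The deposited value table holds a ratio, which equalled that intensity divided by a constant per array (2273 in the KO pool and 2406 in the WT pool) over all 44397 spots. Its medians were 0.0969 in the KO pool and 0.0946 in the WT pool, and it is not centred by gene.

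From 43020 spots outside the controls, 234 outlier spots were left out, which removed 7 probes; 0 spots were saturated. Log2 intensity was averaged over the spots of a probe and set against the 75th percentile over probes. Where a gene had several probes, the brightest that both arrays called well above background was taken. Background names came from a RefSeq table (GRCm38.p6), for 28754 probes by accession, 2029 by symbol and 162 by synonym, with 1582 kept as in the file and 6895 unnamed. Probe positions are those of the files (mm9). The scaling was tested on simulated data with known folds.

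Members and lists were chosen with earlier results of these data known. All members are named; of the other pathway genes, those at least 1.5-fold apart and Pparg, with some genes of the lists not reported here; of each marker list, the extremes. Other named genes were chosen after their values were seen. Alternatives used numpy 2.4.6 and limma 3.58.1 (normexp, offset 50).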

Additional observations from a re-analysis of the deposited data

How the results depend on the processing

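With 1 array per group nothing could be left out, and no paired analysis was possible because each group had a single array. The counts of members at least 1.5-fold higher (3) and lower (0) were the same under all 9 alternatives: the 75th percentile over probes above background, median scaling, quantile normalization, normexp, the deposited value table, the mean over probes, bright genes only (30 of the 37 members), no filter on dim probes, and updated symbols. The last 3 left the value of every member kept unchanged. Median scaling, the deposited value table and the 75th percentile over probes above background each shifted all genes by a small constant. These alternatives therefore tested the counts little. The median of the members was 0.0531 log2 with median scaling, where the median of all genes was -0.04; under the other alternatives it lay between 0.07 and 0.10. Averaging probes put Ppara at 0.92 and so left 2 members at least 2-fold higher; Acsl1 then stood at -0.58. The other 324 values of single members moved by less than their scanner error. That limit was wide beside the constant shifts, and many values did not change at all, so staying within it says little. Even so, 5 members near 0 (Crat, Hadh, Hadhb, Slc25a20 and Ucp3) took both signs over the alternatives. Over the alternatives, Pdk4 ranged from 1.42 to 1.47 log2, Plin5 from 1.15 to 1.21 and Ppara from 0.92 to 1.21. The probe for Vnn1 was dim, and its difference ranged from 0.28 to 0.46.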

Other observations

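Some gene families of the pathway held differences of both signs; the families were grouped after the values had been seen. Among the perilipins, the coat proteins of lipid droplets, the differences were -1.13 log2 (Plin1), -0.04 (Plin2), 0.40 (Plin3), 0.50 (Plin4) and 1.20 (Plin5). Among the acyl-CoA thioesterases of the type I family, Acot1 (0.36) and Acot2 (0.40) lay above 0 and Acot4 lay at -0.56, with 93.0 in the KO pool and 146 in the WT pool. Acot3, Acot5 and Acot6 stood at -0.20, 0.12 and -0.18. Of the acyl-CoA oxidases, none of which is a member, Acox3 stood at 0.33 and Acox2 at -1.06. The 5 long-chain synthetases lay below 0, but Acsl3 (-0.02), Acsl4 (-0.07) and Acsl5 (-0.11) did so by less than their scanner error of 0.20. Acsl1 (-0.35) and Acsl6 (-0.83) were lowest. The Acsl6 probe read 180 in the KO pool and 341 in the WT pool, and its other probe was not well above background.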
